A study of Avicennia germinans with 18 samples.

Results

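A set of 150 transcripts of the mangrove tree Avicennia germinans was described. In seedlings of the arid forest each was higher in the root than in the leaf and stem of the same plant, and its level in every arid root exceeded that in every humid root. The study measured RNA in leaves, stems and roots of 3 seedlings of a humid forest and 3 of an arid one, which gave 18 libraries in 6 groups of 3. The forests contrasted in freshwater supply, salt, solar irradiance and temperature. All seedlings had germinated and grown in the field and were then kept for 72 hours in shaded, well watered pots of 3 L with mangrove soil, so both forests shared that treatment before harvest, although the labels also describe the material as taken in the field. All 18 samples carry the same sampling date and hour. Each forest is 1 site, so site and any of these conditions cannot be told apart.

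The members were chosen on the measured values themselves. Levels are given as CPM, a count divided by the library total, times 1000000. Of 47821 transcripts in the table, 29854 have identifiers that start with Ag_, and the others carry the prefix non_cod. Among the Ag_ transcripts, 4756 exceeded the own leaf and the own stem in all 3 arid roots, and 3603 had every arid root above every humid root. Both conditions held for 795. These were ranked by a margin, the log2 ratio of the lowest arid root to the highest humid root with 0.5 CPM added to each, and the first 150 were taken. The margin ran from 3.30 at rank 1 through a median of 0.91 to 0.63 at rank 150. The member at rank 150 had a lowest arid root of 44.7 CPM and a highest humid root of 28.6 CPM. The next transcript, just outside the set, had 4.72 and 2.87 CPM and also a margin of 0.63. The opposite combination, arid roots above their own shoots but below every humid root, was found for 601 Ag_ transcripts.

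Roots of mangroves take up water from saline mud and hold back much of the salt at their inner cell layers, and they grow in soil that is poor in oxygen. Avicennia also secretes salt through glands on its leaves. Ion transport, barrier formation, hormone signalling and responses to low oxygen are the root functions usually studied in such plants. No gene name or sequence was at hand for the identifiers, so no function is given for any member, and organ marker genes could not be checked. 4 members are named by identifier and the others by their rank.

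Library totals ranged from 3.07 to 23.7 M reads, with humid root 2 the shallowest. A count of 0 allowed up to 3 counts, or 0.979 CPM in humid root 2 and between 0.127 and 0.491 CPM in the other 17 libraries. This limit covers counting error only. Transcripts typical of other organs were measured in the root libraries, since the arid roots stood apart in them. Leaf-typical transcripts, with a minimum of 50 CPM in humid leaves and 20-fold lower levels in humid roots, numbered 235, and stem-typical ones defined likewise numbered 102. Their median level in arid roots 1, 2 and 3 was 51.3%, 1.81% and 13.1% of the own leaf for the leaf list. It was 50.9%, 7.03% and 31.8% of the own stem for the stem list. In humid roots, where each seedling was compared with lists built from the other two, these medians lay between 0.475% and 2.39%. Root-typical transcripts numbered 72. Arid roots 1, 2 and 3 held a median of 5.95%, 23.4% and 6.67% of their mean level in humid roots. Single humid roots held 46.1%, 38.3% and 72.7% of the mean of the others. No member was on any of the 3 lists. Each list asks for at least 50 CPM in a humid organ. The upper quartiles of the member means there were between 12.7 and 27.3 CPM, so most members could not qualify for a given list. The part of shoot-typical RNA in the root levels was not tested.

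The members spanned a wide range of levels. The lowest arid root of each member ran from 0.329 to 1583 CPM, with a median of 8.57 CPM. At least 10 CPM in every arid root was reached by 70 members, and at least 50 CPM by 29. At the other end, 17 members had a lowest arid root under 0.979 CPM, the limit of the shallowest humid root. For that arid root the difference from humid root 2 lay within what the depth of humid root 2 could not detect. In 1 of these members every arid root was under the limit. In all 3 humid roots 11 members had 0 counts, and their arid root levels ran from 0.329 to 5.71 CPM. The filter on low counts was passed by 142 members. The 8 that did not pass had between 3 and 29 counts in an arid root.

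**Figure D1:**
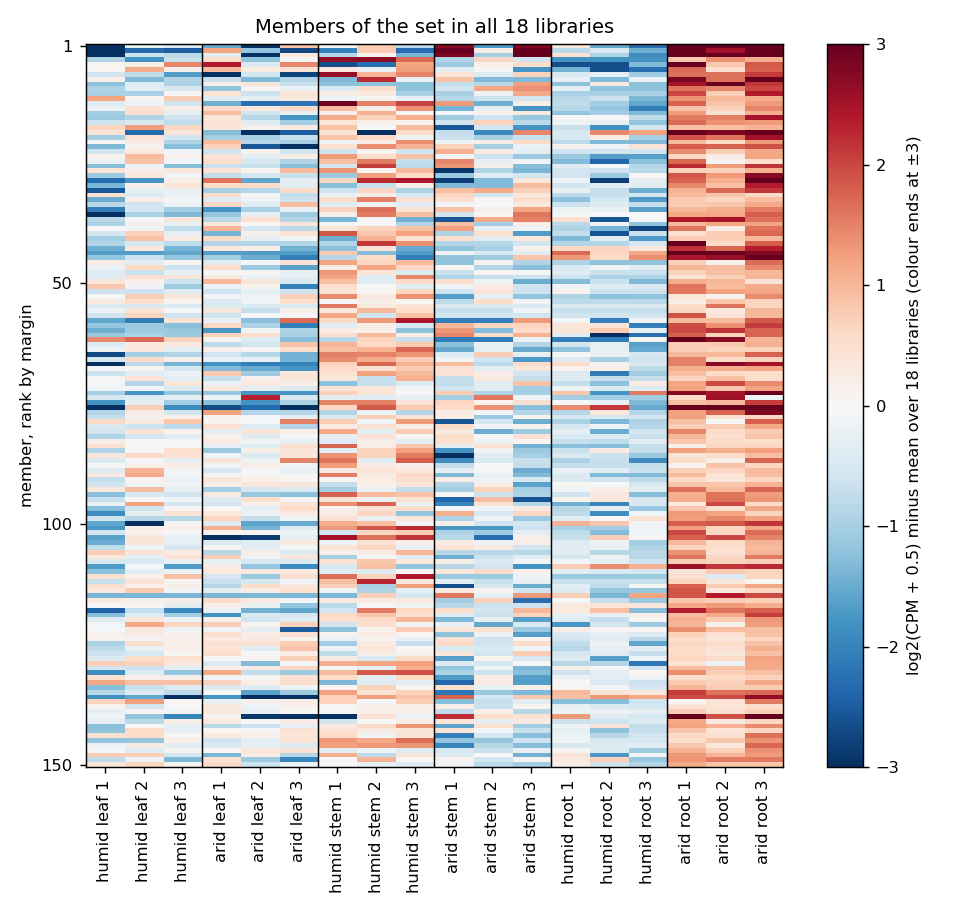
Level of each of the 150 members (vertical axis, rank by margin) in each of the 18 libraries (horizontal axis), as log2(CPM + 0.5) minus the member's mean over all libraries, with red above and blue below that mean. The 3 arid root columns are red in nearly every row because the members were chosen for it, the humid stem columns are redder than the humid root columns, and ranks 1 to 3 are also red in arid stems 1 and 3.

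Together the members took 1.29 ± 0.0455% of the reads of arid roots and 0.386 ± 0.0587% of those of humid roots (SD, n = 3 in each group). The sums in arid roots 1, 2 and 3 were 13095, 12327 and 13134 CPM, and those in humid roots 1, 2 and 3 were 4209, 4180 and 3178 CPM. The roots of both forests were thus far apart in this sum, which the choice of members fixes. Humid stems stood at 5621, 7278 and 5353 CPM and arid stems at 8445, 4130 and 7259 CPM. Leaves lay between 4265 and 5994 CPM in all 6 libraries.

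The first 3 ranks made up a large part of the sum in some libraries. They held between 23.9% and 26.7% of it in the arid roots, 25.2% and 29.3% in arid stems 1 and 3, and 3.47% in arid stem 2. In humid roots they held between 2.13% and 7.19%. Without them the mean sum was 9621 ± 515 CPM in arid roots, 3688 ± 506 CPM in humid roots, 5146 ± 1167 CPM in arid stems and 5894 ± 919 CPM in humid stems (SD, n = 3).

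**Figure D2:**
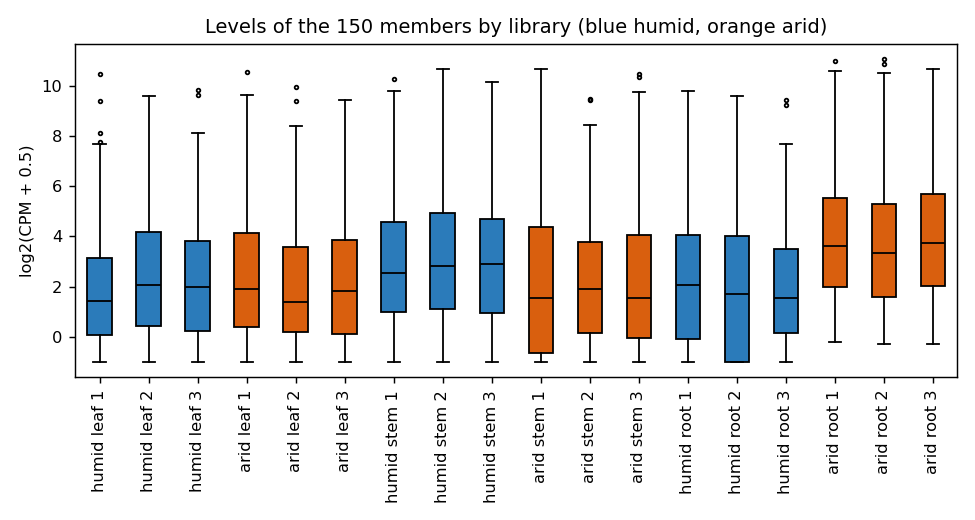
Distribution of the levels of the 150 members in each library, as log2(CPM + 0.5), with the box at the quartiles, the line at the median, whiskers to 1.5 box lengths and points beyond; blue boxes are humid and orange boxes arid libraries. Medians in the 3 arid roots were 11.9, 9.6 and 12.7 CPM, those of the 3 humid stems lay between 5.32 and 6.92 CPM, and those of the other 12 libraries lay between 2.13 and 3.7 CPM.

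The member with the largest margin was Ag_36752. It was at 739, 913 and 571 CPM in arid roots 1, 2 and 3, against 57.5, 15.3 and 8.9 CPM in humid roots. Arid stems 1 and 3 had 300.5 and 311 CPM, whereas arid stem 2 had 13.3 CPM, within the range of the arid leaves (1.53 to 83.5 CPM). Humid stems had between 25.5 and 79 CPM, and humid leaf 1 had 0 counts while humid leaves 2 and 3 had 39.3 and 34.3 CPM. Arid root 2 had the highest level of all 18 libraries. Between humid leaf and stem its log2 fold change, here and below leaf minus stem, was -0.76 with SE 1.33 and an edgeR adjusted p of 0.82.

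The members at ranks 2 and 3 shared the high levels in arid stems 1 and 3. Rank 2 had 1155, 252 and 926 CPM in arid roots 1, 2 and 3 and 686, 51.4 and 411 CPM in the stems of the same seedlings. Its humid roots lay between 15.7 and 32.6 CPM. Rank 3 had 1372, 2127 and 1638 CPM in arid roots and 1138, 78.5 and 1406 CPM in arid stems, with humid roots between 43.1 and 220 CPM. Ranks 1 and 3 had the most similar pattern of all 11175 pairs of members, with Pearson's r of 0.98 on log2(CPM + 0.5) over the 18 libraries, which share organ and seedling. Their ratio, rank 3 to rank 1, still ranged from 1.86 to 10.5 over the 17 libraries where rank 1 was counted. Whether they share reads as near copies could not be assessed without sequences. The median r over all pairs was 0.45. Arid stems 1 and 3 both exceeded arid stem 2 more than 4-fold in 9 members (6% of the set), close to the 5.56% among all 27608 Ag_ transcripts that passed the filter.

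The most abundant member by its lowest arid root was Ag_43419, at rank 32. It was high in every organ: arid roots 1, 2 and 3 had 2021, 1865 and 1583 CPM, and humid roots had 599, 636 and 696 CPM. Arid stems ranged from 704 to 1631 CPM and humid stems from 709 to 1176 CPM. Leaves of both forests ranged from 613 to 1490 CPM, with the forests overlapping. By group mean the humid roots were the lowest and the arid roots the highest, with the 4 shoot groups between them and overlapping each other. The log2 fold change between humid leaf and stem was 0.52 with SE 0.38 and an edgeR adjusted p of 0.51.

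Arid roots differed little among themselves for most members. The median range over the 3 arid roots was 0.63 on the log2(CPM + 0.5) scale, against 0.82 for all Ag_ transcripts that passed the filter, but a condition on the lowest arid root favours small ranges. Arid root 3 was the highest of the 3 in 79 members, arid root 1 in 49 and arid root 2 in 22. Arid root 2 was the lowest in 89. Among all Ag_ transcripts tested, arid root 2 was the lowest in 41.6% and arid root 3 the highest in 33.6%. In 47 members every arid root exceeded each of the other 15 libraries, which the rule had not asked of humid leaves and stems. Among all Ag_ transcripts tested 0.652% did so, a share that does not bear on the members since the rule fixed much of that condition. In the other members some shoot library reached the level of the lowest arid root.

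In the arid seedlings the shoot organs lay below the root by the rule. The own leaf had a median of 43%, 41.9% and 34.2% of the root level in seedlings 1, 2 and 3, and the own stem 25.9%, 41.4% and 24.4%, with 0.1 CPM added to both. In the humid seedlings the same members had medians of 162%, 241% and 237% of the root level in the own stem and of 96.6%, 143% and 157% in the own leaf. Humid roots entered the rule as a ceiling, so these percentages are a description. Over all Ag_ transcripts that passed the filter the humid stem medians were 111%, 115% and 129%.

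The order of the organs in the humid forest was counted as a description, since the rule held the humid roots low. The humid root exceeded the own leaf and the own stem in all 3 humid seedlings for 6 members (4% of 150), against 12.9% of all Ag_ transcripts tested. In none of the 3 seedlings did it do so for 114 members (76%), against 47.3% of all Ag_ transcripts tested. By mean CPM the humid stem was the highest humid organ for 106 members, the humid leaf for 28 and the humid root for 16. After scaling with trimmed mean of M-values (TMM) factors, which lower the levels of humid stems, these numbers were 89, 44 and 17. The humid stem was highest for 42.8% of all Ag_ transcripts tested on CPM and for 30.1% after scaling. For 28 members (18.7%) the humid stem mean exceeded the arid root mean, and for 19 (12.7%) after scaling, against 61.7% and 47.8% of all Ag_ transcripts.

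Whether the members differed between humid leaves and humid stems is the comparison that uses no library of the rule. It was tested with edgeR's quasi-likelihood test on all transcripts, with scaled libraries, and a transcript was called at a Benjamini-Hochberg adjusted p under 0.05. Of the 142 members tested, 6 were called higher in the humid stem (4.23%), against 0.699% of all Ag_ transcripts. None was called higher in the humid leaf, against 1.41% of all Ag_ transcripts. An unadjusted p under 0.05 was found for 24 members higher in stem (16.9%) and 4 higher in leaf (2.82%), against 7.86% and 13.6% of all Ag_ transcripts. The median leaf minus stem log2 fold change was -0.46 over the members (quartiles -1.23 and 0.19) and 0.05 over all Ag_ transcripts (quartiles -0.56 and 0.66). DESeq2 called 17 members higher in stem (12%) and 1 higher in leaf (0.704%), against 3.93% and 6.14%.

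The same lean was present in transcripts that had arid roots above their own shoots but arid and humid roots that overlapped. Of 3245 such Ag_ transcripts, 1.97% were called higher in the humid stem and 0.74% higher in the humid leaf by edgeR, with a median log2 fold change of -0.24. The difference between both sets was not tested. The number of members called rested on single libraries: it was 0 without humid leaf 1 or any 1 of the humid stems, 1 without humid leaf 3 and 4 without humid leaf 2. The calls over all Ag_ transcripts fell as well. Those higher in stem numbered 193 with all libraries and 5 without humid leaf 1. They numbered 23, 23 and 12 without humid stem 1, 2 or 3, 70 without humid leaf 3 and 100 without humid leaf 2. The 6 called members all kept the lower level in leaf in each of these fits, with edgeR adjusted p-values of at most 0.195. They had been chosen as lower in leaf, and their humid leaves and stems did not overlap. This direction was thus largely fixed, and nothing is read from it.

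**Figure D3:**
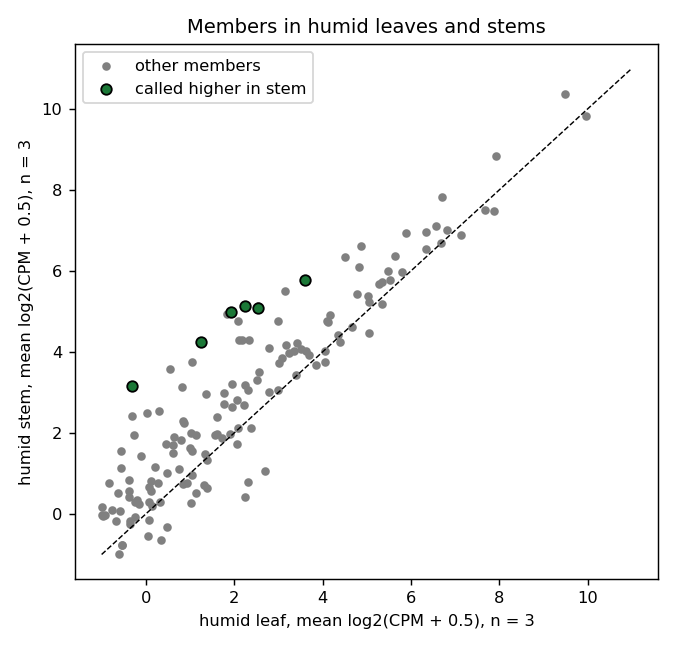
Mean log2(CPM + 0.5) of each member in the 3 humid leaves (horizontal axis) and the 3 humid stems (vertical axis), with the dashed line at equal levels. Green points are the 6 members that edgeR called higher in stem. Most members lie above the line, as 120 of 150 (80%) had a higher mean CPM in humid stem than in humid leaf, or 102 (68%) after TMM scaling. The shares were 62.3% and 47.4% of all Ag_ transcripts tested. They were 76.8% and 62% of the 3245 with arid roots above their own shoots but overlapping roots.

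The 6 called members kept the humid stem above the humid leaf without overlap. Rank 65 had 19.3, 18.9 and 17 CPM in humid stems 1, 2 and 3 and 0.548, 2.94 and 3.16 CPM in humid leaves, which gave a log2 fold change of -2.74 with SE 0.53 and an edgeR adjusted p of 0.021. Its arid stems, at 4.69, 11.2 and 5.45 CPM, lay below all humid stems, and its arid roots, at 13, 13.3 and 23 CPM, above humid roots of 6.41, 5.55 and 4.37 CPM. In the humid forest the stem thus held the highest level of this transcript, and in the arid forest the root did. The rule fixes the root as highest in the arid seedlings and favours low humid roots, and the call fixes the stem above the leaf. These limits of the choice apply to the other called members as well.

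At rank 13 the stem was also the highest humid organ and the root the highest arid one by group mean. Humid stems had 56.8, 21.3 and 30.5 CPM and humid leaves 5.37, 6.3 and 4.52 CPM, which gave a log2 fold change of -2.42 with SE 0.56 and an edgeR adjusted p of 0.040. Arid stems had 17.9, 2.25 and 8.09 CPM, humid roots between 2.11 and 3.98 CPM and arid roots between 13.2 and 25.5 CPM. Rank 4 was not counted in any humid root. It had between 5.14 and 10.9 CPM in humid stems, at most 0.591 CPM in humid leaves (log2 fold change -4.15, SE 0.98, edgeR adjusted p 0.049) and between 2.54 and 4.01 CPM in arid roots. With the seedling as a block its edgeR adjusted p was 0.064, so that it was not called, while the other 5 were called. Each of these arid root levels is above the limit of 0.979 CPM in the shallowest humid root. Ranks 67, 75 and 136 were called with log2 fold changes of -2.55, -1.88 and -2.84 (edgeR adjusted p 0.031, 0.041 and 0.023). At rank 136 the humid roots (30.3 to 40.5 CPM) overlapped the humid stems (27 to 38.6 CPM). Their mean was the higher one, at 35.8 against 31.7 CPM, so the stem was not its highest humid organ.

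The forests were also compared within stems and within leaves. The rule caps each arid stem and arid leaf at the own root, so these counts are a description. By edgeR no member of the 142 tested was called between forests in stems, where 1.41% of all Ag_ transcripts were called in either direction, with 15 members higher and 29 lower in the arid forest at an unadjusted p under 0.05. These were 31% of the members, against 20.5% of all Ag_ transcripts. DESeq2 called 22 members in stems (15.5%), 5 higher and 17 lower, against 9.36%. Without arid stem 2 edgeR called 28 of 144 members (19.4%), 9 higher and 19 lower, against 8.66%. In leaves edgeR called no member and 0% of the Ag_ transcripts, with 5 members higher and 3 lower at an unadjusted p under 0.05 (5.63% together, against 7.89%). In DESeq2 a single member was called (0.704%, against 1.06%), which was lower in the arid forest.

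Levels without overlap between forests were counted in each shoot organ. On CPM, 48 of the 150 members had every arid stem below every humid stem (32%), against 26.5% of all Ag_ transcripts tested, and 5 had every arid stem above every humid stem, against 3.19%. Scaling matters here, since the median stem difference of all Ag_ transcripts was -0.43 in log2(CPM + 0.5) and 0.07 in the scaled fit. After TMM scaling 32 members were lower (21.3%), against 12.6%, and 9 were higher (6%), against 10.5%. Of the 3245 transcripts with arid roots above their own shoots but overlapping roots, 45.9% were lower in arid stems on CPM and 25.8% after scaling. The members' shares were below those of this set on both scales. Both sets cap arid stems at the own root. The median root difference, arid minus humid in log2(CPM + 0.5), was 1.68 in the members and 0.06 in this set. The cap thus differed by the choice of the sets, and nothing is read from the lower shares. In leaves, 4 members were higher in the arid forest without overlap (2.67%), against 5.54%, and 8 were lower (5.33%), against 8.57%. After scaling the leaf counts were 13 (8.67%) and 9 (6%), against 7.18% and 7.61%.

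The 2 other named members had the lowest arid minus humid difference in leaf and in stem among members of at least 5 CPM in that humid organ. For Ag_25264, at rank 103, humid leaves 1, 2 and 3 had 2.19, 9.79 and 6.41 CPM and arid leaves 0, 0.637 and 6.13 CPM, so that the groups overlapped. Its stems did not overlap, with 45, 25.4 and 35.9 CPM in the humid and 4.13, 1.17 and 8.63 CPM in the arid forest. Its roots had 4.53, 13.1 and 8 CPM in the humid and 27.8, 32 and 22.5 CPM in the arid forest. Arid minus humid differences of mean log2(CPM + 0.5) were -1.89 in leaf, -3.08 in stem and 1.73 in root. Between humid leaf and stem the log2 fold change was -2.25 with SE 0.96 and an edgeR adjusted p of 0.22.

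For Ag_30439, at rank 101, humid stems 1, 2 and 3 had 3.6, 5.6 and 7.41 CPM, while arid stems 1 and 2 had 0 counts and arid stem 3 had 0.599 CPM. Arid roots had 3.43, 2.14 and 3.18 CPM and humid roots 0.332, 0.326 and 1.06 CPM, of which those in humid roots 1 and 2 rest on 3 and 1 counts. Leaves overlapped between forests, from 0 to 1.43 CPM in the humid and from 0.127 to 3.1 CPM in the arid forest. The differences were -3.16 in stem and 1.72 in root. In both transcripts the stem was the highest organ of the humid and the root that of the arid seedlings by group mean. The rule fixes the root as highest in the arid seedlings and favours low humid roots. The choice of both for a low arid minus humid difference in leaf or stem favours high humid shoots, so nothing is read from this order.

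**Figure D4:**
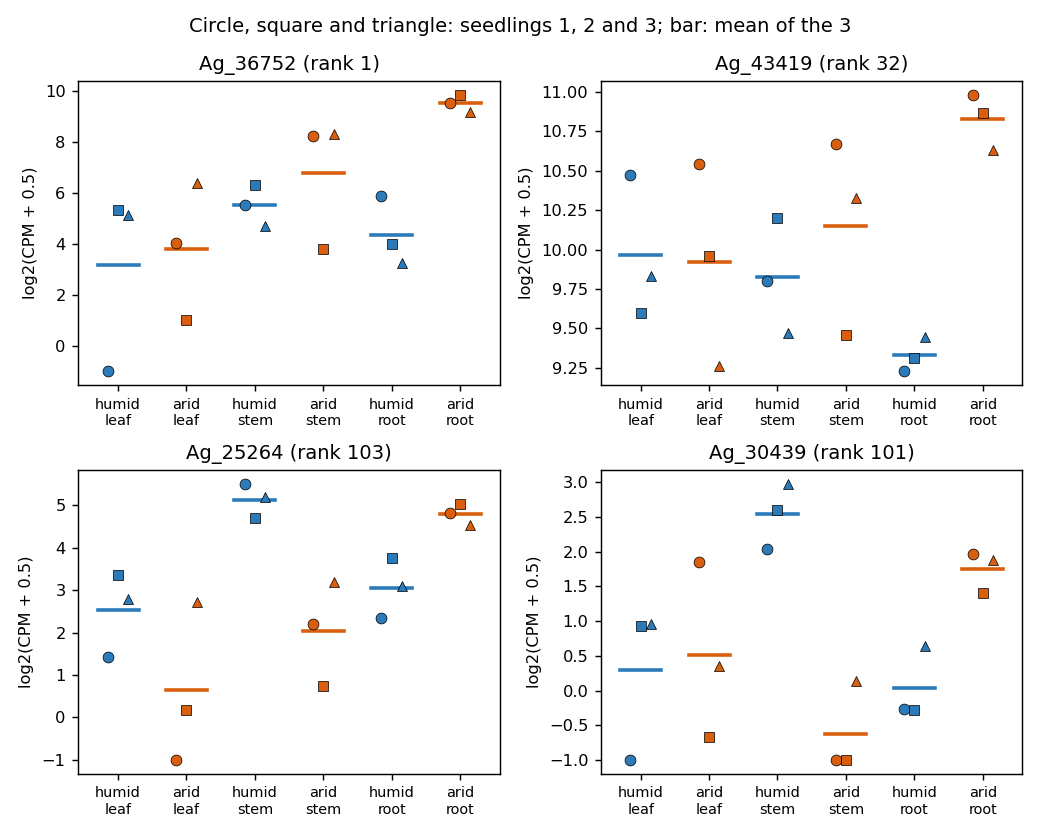
Level of the 4 named members in each library as log2(CPM + 0.5), grouped by forest and organ; symbols mark seedlings 1 to 3 and bars the mean of 3 libraries, and the vertical scales differ between panels. All 4 have arid roots above humid roots, as the rule demands; Ag_25264 and Ag_30439 are lower in all arid than in all humid stems, and Ag_36752 is high in arid stems 1 and 3 but not in arid stem 2.

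The contrast of arid with humid roots was itself used by the rule. EdgeR called 32 of the 142 members tested higher in arid roots, against 1.82% of all Ag_ transcripts, and nothing is read from this count. Single libraries decided it. Leaving out humid root 1, 2 or 3 gave 11, 6 and 0, and leaving out arid root 1, 2 or 3 gave 1, 29 and 4. The calls over all Ag_ transcripts moved as well. Those higher in arid roots numbered 502 with all libraries. They numbered 188, 198 and 0 without humid root 1, 2 or 3, and 77, 890 and 208 without arid root 1, 2 or 3. The dependence on single libraries is thus not particular to the members. DESeq2 called 76 members with all libraries, against 4.96% of all Ag_ transcripts. In bulk samples a change in the share of a cell type and a change in RNA per cell cannot be told apart.

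Libraries left out of the choice gave a look at values the rule had not used. When arid seedling 1, 2 or 3 was left out and 150 transcripts were picked by the same rule from the other libraries, the root of the seedling left out exceeded its own leaf and stem for 91, 77 and 113 of them. These were 60.7%, 51.3% and 75.3%, against 37.4%, 42.8% and 44.4% of all Ag_ transcripts tested. The share was closest to that of all transcripts for seedling 2, whose root was lowest in shoot-typical transcripts; the part of these in the share was not tested. The same root exceeded every humid root for 131, 121 and 139 of the picked transcripts. That is 87.3%, 80.7% and 92.7%, against 32.5%, 23.9% and 33.4% of all, though the humid roots had taken part in the choice. Both conditions held together for 56.7%, 48.7% and 70.7%, against 14%, 12.9% and 16.6%. With humid root 1, 2 or 3 left out, that library lay below every arid root for 78%, 81.3% and 89.3% of the transcripts picked, against 27.1%, 29.6% and 37.3% of all, though the arid roots had taken part in the choice.

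**Figure D5:**
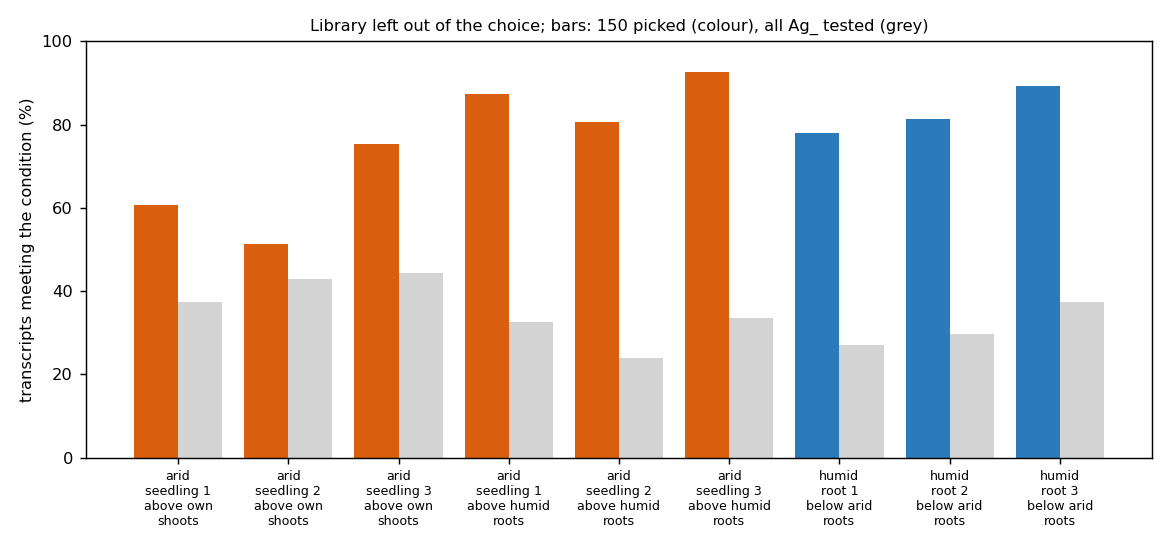
Percent of transcripts that met a condition in a library left out of the choice (vertical axis), for the 150 transcripts picked without it (orange for arid seedlings, blue for humid roots) and for all 27608 Ag_ transcripts that passed the filter (grey). The orange bars for own shoots stand above the grey ones by the least (51.3% against 42.8%) for arid seedling 2; in the other comparisons, with roots of the other forest, those roots had been used in the choice, which builds in part of the distance.

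The set itself depended on each library. Of the 150 members, 68, 54 and 96 were picked again without arid seedling 1, 2 and 3, and 75, 89 and 102 without humid root 1, 2 and 3. The fewest were kept without arid seedling 2, whose root was the lowest arid root for 89 members.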

How the data were processed

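RNA of 18 libraries was sequenced by the study. The authors deposited raw whole-number counts of reads for each transcript in 1 table and in 1 file per library, and all 18 files equal the table. The authors describe them as uniquely mapped reads. Bowtie 0.12.2 and edgeR are named, with no role, in the submitters' processing notes; for the counting program and the reference transcriptome the sources used here give no name. The labels do not say whether counting used strand. Samples were grouped by the forest, organ and number in their titles.

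CPM values and the rule were computed in Python 3.11.15 with pandas 2.3.3. Tests used edgeR 4.0.16 under R 4.3.3 (glmQLFit and glmQLFTest) on the deposited counts of all 18 libraries in 1 model with a mean per group, TMM factors and filterByExpr (minimum count 10, minimum total 15), which left 40897 transcripts, 27608 of them Ag_. P-values were adjusted over all 40897 and called at 0.05. The SE given with an edgeR log2 fold change was derived from the test, as the absolute fold change divided by the square root of its F statistic. DESeq2 1.42.0 was an alternative. The procedure was tested on data with known changes. Same-numbered organs of a forest come from the same seedling by the series' design text, and the deviations of humid leaf and stem correlated at 0.203, 0.189 and 0.28 for seedlings 1, 2 and 3. No replicate pair looked like copies of 1 library (lowest chi-square per degree of freedom 20.9). Nothing else says how far replicates are independent, so p-values cover the spread between these seedlings only. In the main fit the spread was estimated over all groups together. A p-value for a contrast thus also carries the spread of groups not compared. Organs of 1 seedling were treated as independent there. The members and lists were chosen with earlier results of these data known. The named members were to be the one with the largest margin, the one with the highest minimum arid root and those with the lowest forest difference in leaf and in stem. Differences between forests in stems and leaves without overlap, and the most abundant humid organ, were also counted on TMM-scaled levels, an alternative chosen after the data were seen. Plots were drawn with matplotlib 3.10.9.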

Additional observations from a re-analysis of the deposited data

Results flagged for a closer look

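By the rule every arid root exceeded every humid root. In stems 48 members lay the other way, with every arid stem below every humid stem (32%, against 26.5% of all Ag_ transcripts tested), and 32 after TMM scaling (21.3%, against 12.6%). Among the 3245 Ag_ transcripts with arid roots above their own shoots but overlapping roots, 45.9% had such stems, and 25.8% after scaling. The members' shares were below those of that set. Arid stems were capped at higher arid roots in the members than in that set, relative to humid roots, so nothing is read from this. In leaves 8 members lay the other way, with every arid leaf below every humid leaf (5.33%, against 8.57%), and 9 after scaling (6%, against 7.61%). The difference between organs was not tested, since the choice of members fixes the direction in roots and caps the arid shoots.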

How the results depend on the processing

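Members called between humid leaf and stem numbered 6 of 142 tested, against 18 by DESeq2 and 12 of 118 tested with only the 6 libraries compared. They numbered 8 with the seedling as a replicate block (5 of the 6 among them), 4 of 150 with no filter, and 0 to 4 without single libraries. All 6 stayed lower in leaf in every one of these fits, which their choice as lower in leaf without overlap largely fixed. The contrasts between forests compare different seedlings and took no block. Between arid and humid roots 32 were called, against 76 by DESeq2, 11 of 130 tested with only the root libraries and 0 to 29 without single libraries. Between forests in stems the count was 0, against 1 under upper quartile factors, 22 by DESeq2 and 0 to 28 without single libraries. In leaves it was 0, against 1 by DESeq2, and 0 without any single library. Membership kept 114 with TMM-scaled levels, 127 and 114 with pseudocounts of 0.1 and 2 CPM, 124 with a floor of 3 counts in humid roots, 105 with non_cod transcripts included, and 54 to 102 without single seedlings or humid roots. Humid roots above the own shoots in all seedlings numbered 6, 7 after TMM scaling and 8 to 10 without single seedlings. The humid stem was the highest humid organ for 97 to 107 members without single seedlings. Arid stems lay below humid ones without overlap for 48 members with all libraries (32%, against 26.5% of all Ag_ transcripts tested) and for 54 to 67 without single ones. The share of all Ag_ transcripts without single libraries is not given here, so nothing about the members is read from 54 to 67. A count that asks a condition of every library or seedling cannot fall when 1 is left out. The rise to 54 to 67, and that of the humid roots to 8 to 10, was thus fixed in direction. Over all transcripts the calls between humid leaf and stem numbered 671, against 3389 by DESeq2, 2378 with only those 6 libraries, 1404 with the replicate block and 11 to 436 without single libraries. Between roots these calls numbered 662, against 2334 by DESeq2, 160 with only the root libraries and 1 to 1110 without single libraries. Between forests in stems they numbered 565, against 637 under upper quartile factors, 3833 by DESeq2 and 32 to 3611 without single libraries. In leaves they numbered 0, against 326 by DESeq2 and 0 to 4 without single libraries. Among the named members Ag_25264 passed the threshold under 1 alternative, with an edgeR adjusted p of 0.033 between humid leaf and stem in a fit of only those 6 libraries. Depth limits the members whose lowest arid root was under 0.979 CPM.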
